A study of Saccharomyces cerevisiae with 13 samples.

Results

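The chromosome breaks described here are those mapped in hydroxyurea-treated budding yeast (Saccharomyces cerevisiae) with an intact MEC1 gene, in separate experiments named Exp C and the Control experiment. Each experiment gave 1 list of break peaks for this condition, 103 peaks in Exp C and 43 in the Control experiment, of 3709 peaks in the 13 lists of the series. Peaks of both lists that overlapped by at least 1 bp were merged, and the merged regions were sorted by the lists they came from. There were 15 regions with a peak of each list, 88 with a peak of Exp C only and 28 with a peak of Control only.

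Break-Seq labels DNA ends inside agarose plugs with a biotinylated nucleotide, captures the labelled fragments on streptavidin beads and sequences them. The cells were strain WFA72 (MEC1), called wild type (WT) here, grown in YPD medium, arrested in G1 with the mating pheromone alpha factor at 3 µM, and exposed to 200 mM hydroxyurea (HU) for 1 h. The lists used for comparison came from the mutant strain WFA73 (mec1-1), with 3 HU lists made under the same doses and time (Exp A, Exp B and the Control experiment), 1 list of mec1 G1 DNA digested with BamHI, and lists in which a library was called over another. All peaks were called on pools of cells, so the share of cells broken at a site is unknown.

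Hydroxyurea inhibits ribonucleotide reductase, which makes the deoxyribonucleotides for DNA synthesis, so that replication forks slow or stall. Mec1, the yeast counterpart of the checkpoint kinase ATR, senses stalled forks, holds them stable and raises the nucleotide supply. Genes transcribed by RNA polymerase III, above all tRNA genes, are known natural pause sites for replication forks in yeast.

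The WT lists differed in length, width and processing, and this bears on every comparison below. The Exp C peaks covered 479 kb, or 3.97% of the 12.06 Mb of nuclear chromosomes, and the Control peaks covered 109 kb, or 0.905%. Exp C peaks were 809 to 9121 bp wide with a median of 4943 bp, and 56 of the 103 reached 4 kb. Control peaks were 996 to 5262 bp wide with a median of 2084 bp, and 8 of the 43 reached 4 kb. The submitters' processing notes name Bowtie2, BWA 0.6.2 and MACS 1.4.1 for Exp C, and BWA alone for the Control experiment. The lists hold no read counts, so the depth is unknown, and experiment, aligner and depth cannot be told apart. With 1 list for each experiment there is no replicate check and no test. The 95% intervals given for shares are exact Clopper-Pearson intervals that cover counting error only.

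**Figure D1:**
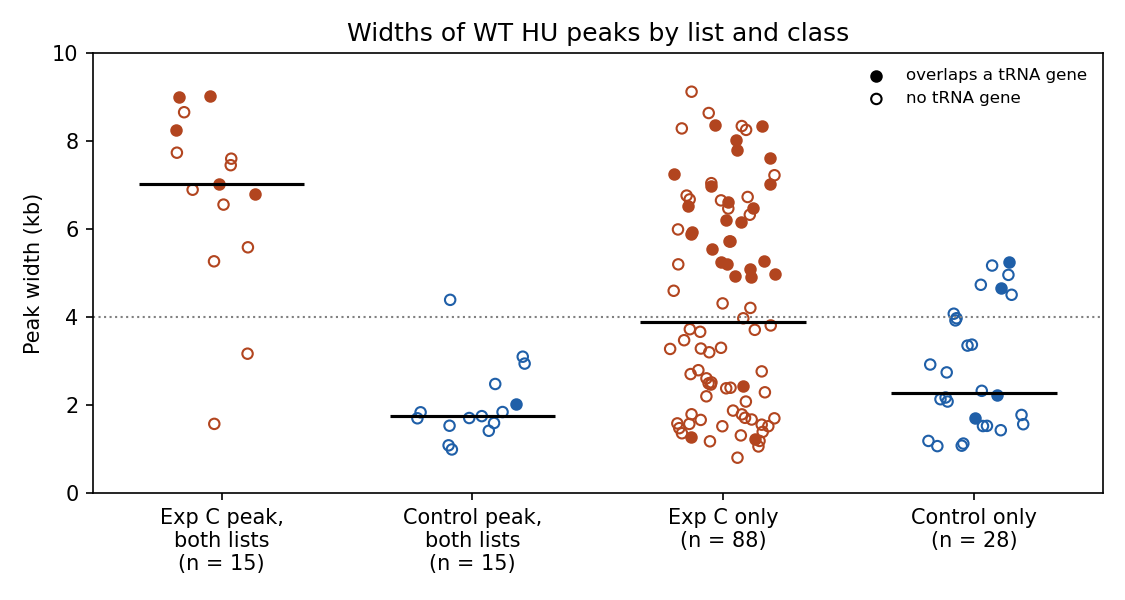
Width in kb of every WT HU peak, by class, with Exp C in red and Control in blue. Filled points overlap a tRNA gene, black lines are medians and the dotted line marks 4 kb. Filled Exp C points lie almost all above 4 kb, and 14 of the 15 Exp C peaks shared with Control were wider than their Control partner.

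The first comparison asked whether the same sites were called in the separate experiments. The shared regions made up 14.6% of the Exp C peaks (interval 8.39 to 22.9%) and 34.9% of the Control peaks (interval 21.0 to 50.9%). Windows of the same widths as the Exp C peaks, slid over every position of the chromosomes, touched a Control peak in 2.50% of positions. Windows of the widths of the Control peaks touched an Exp C peak in 6.04%. The shared count was therefore 5.83 and 5.78 times the share of such windows. The shared peaks were mostly wide in Exp C and narrow in Control. Of the 56 Exp C peaks that reached 4 kb, 13 (23.2%, windows 3.18%) met a Control peak, against 2 of the 47 narrower ones (4.26%, windows 1.68%). Of the 35 Control peaks under 4 kb, 14 (40%, windows 5.64%) met an Exp C peak, against 1 of the 8 wider ones (12.5%, windows 7.80%).

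The peaks that met did not mark the same interval. In 13 of the 15 regions the Control peak lay wholly inside the Exp C peak, and the Exp C peak was 3.84 times as wide at the median (0.926 to 6.33 times). The medians were 7018 bp for Exp C and 1753 bp for Control. The midpoints were 1179 bp apart at the median, and in 7 regions the Control midpoint lay nearer to an edge of the Exp C peak than to its middle. With 500 bp around the midpoints in place of whole peaks, 3 regions were shared.

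**Figure D2:**
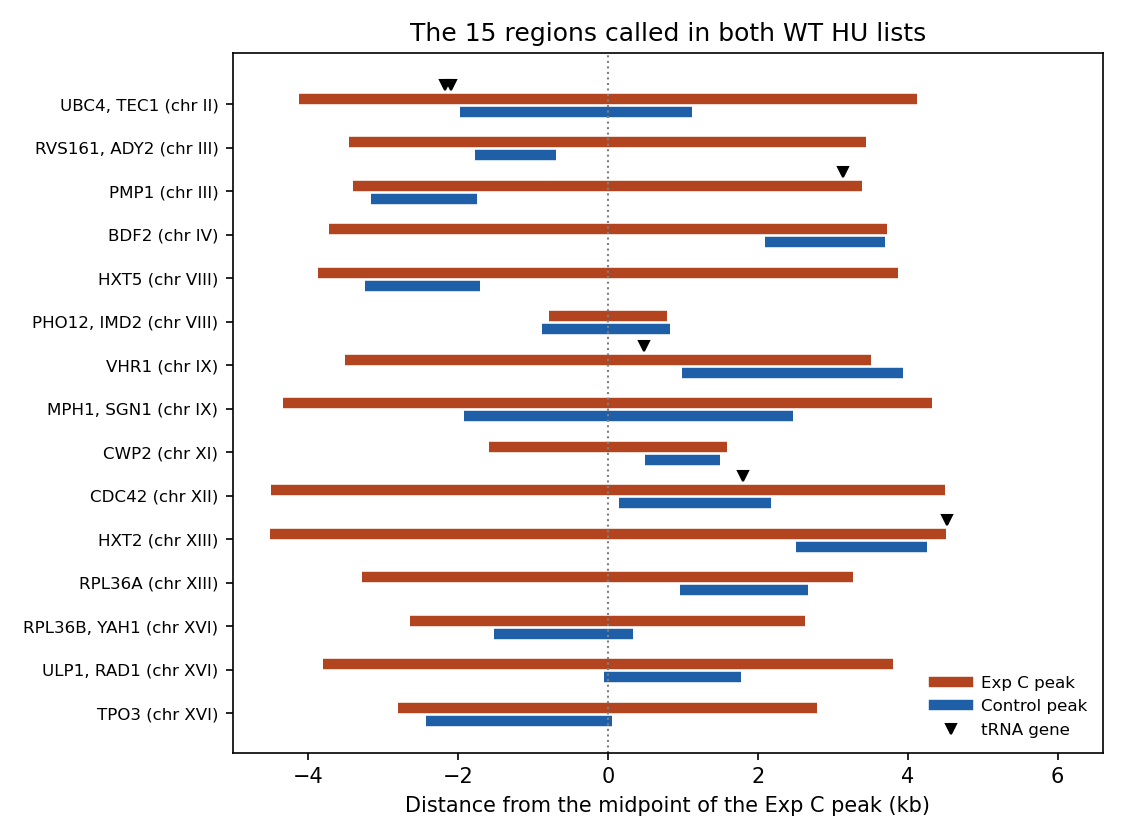
Each row is 1 of the 15 regions with a peak in both lists, named by genes it overlaps, with the Exp C peak (red), the Control peak (blue) and tRNA genes in the Exp C peak (black triangles) drawn as distance in kb from the Exp C midpoint. The PHO12 and IMD2 region is the row in which both peaks have nearly the same ends, and the Control peak overlaps a tRNA gene in the CDC42 row.

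The closest match was at PHO12, an acid phosphatase gene, and IMD2, which codes for an IMP dehydrogenase, on chromosome VIII at 553204 to 554907 (sacCer3, 1-based, as all positions here). The Exp C peak was 1577 bp and the Control peak 1704 bp wide, with midpoints 22 bp apart. Both peaks ran from the 3′ end of PHO12 over the gap between the genes into the 5′ end of IMD2. These genes lie near a chromosome end and have close copies elsewhere in the genome, so reads could be split between copies, and the position is uncertain.

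At 2 of the shared regions the Control peak was over 3 kb and lay near the middle of the Exp C peak. On chromosome II at 403960 to 412211, the Exp C peak overlapped SPT7 (a subunit of the SAGA coactivator), a pair of tRNA genes, UBC4 (a ubiquitin-conjugating enzyme), TEC1 (a transcription factor of filamentous growth and mating) and MIS1. The 3103 bp Control peak was centred 426 bp from the Exp C midpoint, covered UBC4 whole and reached 42 bp into TEC1, while the tRNA genes YNCB0015W and YNCB0016W lay outside it. On chromosome IX at 352858 to 361512, the Control peak of 4394 bp was centred 277 bp from the middle of the 8655 bp Exp C peak. Both covered SGN1, an RNA-binding protein gene, and parts or all of MPH1, a DNA helicase of fork repair.

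Genes of the sugar transport and permease lists, chosen with earlier results known, stood at 4 of the 15 regions. No background was computed for this count, and the 15 regions overlapped 64 protein-coding genes in all. The lists hold 24 and 46 genes, of which all Exp C peaks overlapped 4 and 4, and all Control peaks 2 and 1. Over all protein-coding genes the shares were 5.18% in Exp C and 1.48% in Control. HXT5, a hexose transporter gene on chromosome VIII, was covered whole by an Exp C peak of 7736 bp (score 334.13), and its last 541 bp by a Control peak of 1535 bp (score 92.54). HXT2, a second hexose transporter gene on chromosome XIII, lay whole in an Exp C peak of 9014 bp (score 92.73), and 883 bp of its 3′ end lay in a Control peak of 1753 bp (score 88.48). In each case the Control midpoint was off centre, by 2477 bp at HXT5 and by 3388 bp at HXT2, the largest offset of the 15. The polyamine transporter gene TPO3 on chromosome XVI had the highest-scoring Exp C peak of the shared set (score 1478.48, rank 9 of 103) but a Control peak of score 62.40, rank 39 of 43. ADY2, an ammonium and acetate transporter gene, lay in the Exp C peak on chromosome III at 128436 to 135330, whose Control partner instead held 174 bp of SAT4 and 453 bp of RVS161, at their 3′ ends. The scores are the authors' own, of unstated scale, and rank peaks within a list only.

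The remaining shared regions held genes of unlike function. PMP1, which codes for a small regulator of the plasma membrane proton pump, lay at 161799 to 168588 on chromosome III, and BDF2, a bromodomain protein gene, at 325683 to 333134 on chromosome IV together with BRE1, the ubiquitin ligase for histone H2B. The biotin-transport regulator gene VHR1 (chromosome IX, 244902 to 252350), CDC42, the polarity GTPase gene (chromosome XII, 599063 to 608062), and ULP1, the SUMO protease gene (chromosome XVI, 508028 to 515627), were each in both peaks. RPL36A, a gene for a large ribosomal subunit protein, was covered whole by both peaks on chromosome XIII at 646554 to 653110. Its duplicate RPL36B, on chromosome XVI at 71758 to 77026, was covered by the Exp C peak, while the Control peak there covered YAH1 and ATG41 and reached 128 bp into VIK1. At CWP2, a cell wall mannoprotein gene on chromosome XI at 257888 to 261058, the Control peak of 996 bp lay in a gap over no annotated gene.

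Shared peaks ranked differently in the lists. The Exp C peaks that met a Control peak had a median score of 280, against 147 for those that did not. The Control peaks that met an Exp C peak had a median score of 81.2, against 96.8 for those that did not. Score and width were weakly related across peaks, with a Spearman rho of 0.33 over the 103 Exp C peaks and 0.15 over the 43 Control peaks. Peaks of 1 list share a library, so these are descriptions.

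Few of the unshared regions were near misses. A peak of the other WT list lay within 1000 bp of 2 of the 88 Exp C only regions and of 1 of the 28 Control only regions. Within 10 kb (10000 bp) the numbers were 4 and 3. The nearest pair stood on chromosome IX, where the Control peak at 208445 to 210683 ended 50 bp before the Exp C peak at 210733 to 218523, and the tRNA gene YNCI0005W spans the gap. Whole chromosomes differed as well. Chromosomes V, VI and XIV had no Control peak and 8, 5 and 4 Exp C peaks, 17 in all. Chromosomes I, II, III and IX had equal numbers in both lists (2, 4, 4 and 5).

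Most tRNA genes in the WT peaks lay in wide peaks of Exp C. In Exp C, 33 of 103 peaks overlapped a tRNA gene, 32.0% (interval 23.2 to 42.0%), against 9.82% of windows of the same widths. In the Control list 5 of 43 did so, 11.6% (interval 3.89 to 25.1%), against 5.66% of windows. The intervals of the lists overlap. Of the 275 nuclear tRNA genes, 37 (13.5%) lay in an Exp C peak and 5 (1.82%) in a Control peak. Over all 6431 nuclear genes, the Exp C list overlapped 368 (5.72%) and the Control list 95 (1.48%).

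Width divided the Exp C peaks. Of the 56 peaks that reached 4 kb, 30 overlapped a tRNA gene, 53.6% (interval 39.7 to 67.0%), where windows of those widths gave 13.8%. Of the 47 narrower peaks 3 did so, 6.38% (interval 1.34 to 17.5%), close to the 5.04% of windows. Among regions without a Control peak, 25 of the 43 wide ones held a tRNA gene, 58.1% (interval 42.1 to 73.0%), and 3 of the 45 narrow ones, 6.67%. Over peaks of all widths, the mec1 HU lists gave 10.9% in Exp A, 13.2% in Exp B and 17.4% in Control, with window shares of 7.76%, 7.74% and 7.89%. The like value for WT Exp C is the 32.0% of its whole list, and wide mec1 peaks were not counted apart.

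The tRNA genes lay towards the edges of the Exp C peaks. Their centres were 1937 bp from the peak midpoint at the median, 25 of the 37 were nearer to an edge than to the midpoint, and 0 were within 250 bp of the midpoint. For windows of 500 bp around the midpoints, the share over a tRNA gene was 0.971% (1 of 103), against 1.30% of all windows of that size. With 1000 bp it was 3.88% (windows 2.41%) and with 2000 bp 7.77% (windows 4.57%). The genes pointed both ways, 14 with the upstream side and 23 with the downstream side towards the midpoint.

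Sorted by their centres, tRNA genes at Exp C peaks of 4 kb or more were densest on either side of the peak edges. The first 500 bp inside the edges held 7 centres, 0.125 per kb, and the first 500 bp outside held another 7, also 0.125 per kb. Of the latter, 5 genes reach into a peak and are among the 37 above, and 2 lie outside the peaks. From 500 to 1000 bp outside there were 5 genes, 0.0893 per kb, none of which reached into a peak. The chromosomes as a whole had 0.0228 per kb. The density was 0.0598 per kb beyond 2000 bp inside the edges (9 genes) and 0.0183 per kb from 2000 to 5000 bp outside them (6 genes). A high density just outside the edges was not particular to wide Exp C peaks. For Exp C peaks under 4 kb the first 500 bp outside held 5 centres, 0.111 per kb, and the first 500 bp inside 3, 0.0641 per kb. For Control peaks under 4 kb the numbers were 5, 0.145 per kb, and 1, 0.0286 per kb.

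**Figure D3:**
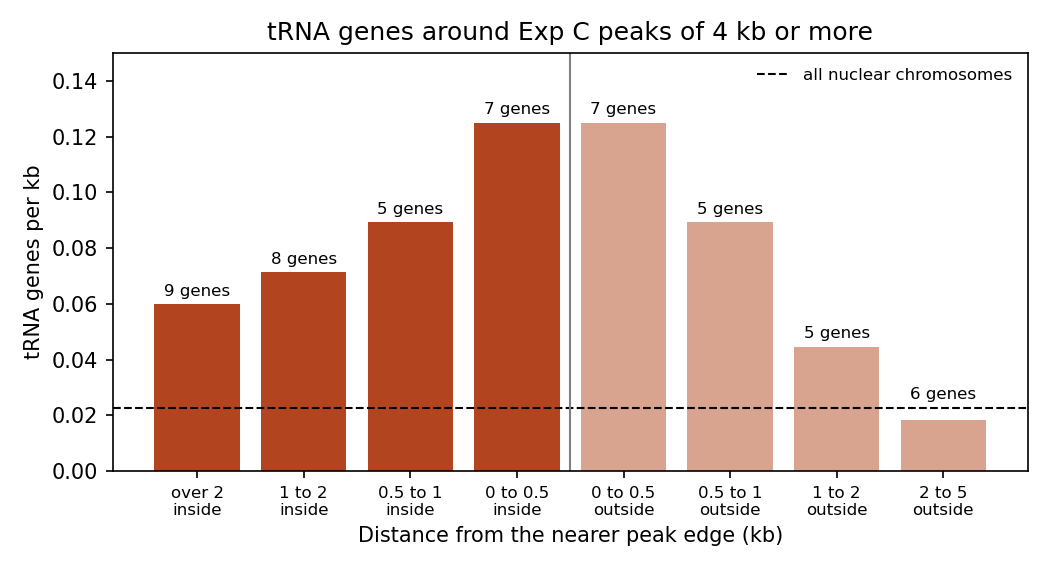
tRNA genes per kb by distance in kb of the gene's centre from the nearer edge of the 56 Exp C peaks of 4 kb or more, inside the peak (dark bars) and outside it (pale bars), with the number of genes above each bar. The dashed line is the density over all nuclear chromosomes, 0.0228 per kb. The bars on either side of the edge are the highest, at 0.125 per kb, and 5 of the 7 genes in the first outside bar reach into a peak.

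The tRNA genes of the highest-scoring Exp C only regions had this edge position. YNCM0007C lay 2528 bp from the midpoint of a 6196 bp peak on chromosome XIII at 178307 to 184502 (score 2249.68), a region that also holds PRP39, a splicing factor gene. YNCJ0005C lay 2209 bp from the midpoint of the 4943 bp peak at 192669 to 197611 on chromosome X, with ASF1, a histone chaperone gene, and PHO86. YNCM0021C lay 2716 bp from the midpoint of the 5740 bp peak at 366896 to 372635 on chromosome XIII, with CSM3, a component of the fork protection complex. Of the 10 highest-scoring Exp C only regions, 6 overlapped a tRNA gene. Most of the 10 reached 4 kb, and of all 43 Exp C only regions of that width 25 (58.1%) did so. At 4 regions an Exp C peak overlapped a pair of tRNA genes. They were the shared UBC4 region, chromosome IV at 564790 to 570714 (YNCD0011W and YNCD0012W), chromosome VII at 774403 to 782016 (YNCG0034W and SUF4) and chromosome VIII at 128350 to 136702 (YNCH0004C and YNCH0005W).

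The UBC4 and UBC5 regions had the same arrangement. UBC4 and UBC5 are duplicate genes of the ubiquitin-conjugating pathway, and each stood beside a tandem tRNA gene pair in an Exp C peak. YNCB0015W and YNCB0016W were 2172 and 2090 bp from the midpoint of the UBC4 peak, and YNCD0011W and YNCD0012W were 1166 and 1248 bp from that of the UBC5 peak. A Control peak was present at UBC4 and not at UBC5.

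In the shared regions, 5 Exp C peaks overlapped a tRNA gene, and in 1 of them the Control peak did so too. That gene was YNCL0033C beside CDC42, 1804 bp from the Exp C midpoint and 638 bp from the Control midpoint. The others were the pair at UBC4, YNCC0010C near PMP1, SUP17 (a suppressor tRNA gene) near VHR1 and YNCM0010W at the edge of the HXT2 region. The 4 tRNA genes of Control only regions were SUP56, SUP61, YNCI0005W and YNCL0001W. SUP61 lay 150.5 bp from the midpoint of the widest Control only peak, 5262 bp on chromosome III at 225512 to 230773, and the centres of YNCI0005W and YNCL0001W lay just outside their peaks. Small nucleolar RNA genes were overlapped by 6 Exp C peaks, 5.83% (windows 2.49%), and by 1 Control peak, 2.33% (windows 1.43%).

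Protein-coding genes were overlapped by both lists. The Exp C list overlapped 311 of 6002 (5.18%), and the Control list 89 (1.48%). Both lists overlapped 27, which is 8.68% of the Exp C genes and 30.3% of the Control genes. The midpoints of Exp C peaks lay inside a protein-coding gene in 47.6% of cases (interval 37.6 to 57.7%), where 72.9% of all chromosome positions do. They lay between divergent genes in 21.4% (interval 13.9 to 30.5%), against 8.83% of all positions. Between genes of the same direction lay 22.3% (interval 14.7 to 31.6%), against 13.7% of all positions. In Control, 60.5% of midpoints were inside a gene (26 of 43) and 9.30% between divergent genes (interval 2.59 to 22.1%). Another 27.9% lay between genes of the same direction (interval 15.3 to 43.7%).

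The 10 highest-scoring Exp C only regions included 1 gene of the replication list and 1 of the checkpoint list. RFA1, which codes for the large subunit of the single-stranded DNA binding complex RPA, held the midpoint of the peak on chromosome I at 154292 to 160284 (score 1877.35). CSM3, of the checkpoint list, lay whole in its peak (score 1200.63). From the list of 66 genes for the G1 to S transition, replication and cohesion, Exp C peaks overlapped ORC3, RFA1, RFC3 and SMC1, or 4 genes, and Control peaks 0. From the 56 DNA repair genes, Exp C peaks overlapped RAD1, RAD4, MPH1 and REV1, and Control peaks overlapped MPH1. Those 4 of 66 and 4 of 56 are near the 5.18% of all protein-coding genes.

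The other high-scoring Exp C only regions were at unlike genes. On chromosome X at 204109 to 209083 (score 1875.83) the peak overlapped MDV1, a mitochondrial fission gene, CCT7, a chaperonin subunit gene, and the tRNA gene YNCJ0006W. On chromosome VI at 132830 to 138099 (score 1699.83) it overlapped MSH4, a meiotic MutS homologue gene, VTC2 and the tRNA gene YNCF0004C. BDP1, which codes for a subunit of the RNA polymerase III initiation factor TFIIIB, shared the region on chromosome XIV at 555554 to 562030 with IDH1, NCE103 and the tRNA gene YNCN0010C. KSS1, a mitogen-activated protein kinase gene of the mating and filamentous pathways, lay on chromosome VII at 574595 to 578805. The top score of the list was on chromosome XII at 458959 to 460753 in the ribosomal RNA gene repeats (RDN37-2 and RDN5-1), where reads from many near-identical copies fall together. HXT7 and HXT6, near-identical hexose transporter genes, flanked the peak on chromosome IV at 1155892 to 1159866 (score 2119.07), with 37 bp of HXT7 and 259 bp of HXT6 inside it.

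Width ran from 809 bp, at the left end of chromosome III, to 9121 bp on chromosome XI at 51307 to 60427. That widest region overlapped TOR2, a gene of the TOR kinases, LOS1, a tRNA export factor gene, and EAP1, with no tRNA gene and a score of 59.40. The next, on chromosome X at 438323 to 446959, overlapped SAG1, the alpha-agglutinin gene of mating. The third widest, on chromosome V at 54894 to 63266, overlapped VMA8, MAK10, a pair of snoRNA genes and the tRNA gene YNCE0004C. Among the narrowest were regions at the first 238 bp of REV1, the translesion polymerase gene (chromosome XV, 980885 to 982065), and at parts of MRP20 and PDR15 (chromosome IV, 1278254 to 1279317).

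The 28 Control only regions touched the 5′ ends of a few genes of the glycolysis and fermentation list, with most of each peak over neighbouring sequence. Of 27 glycolysis and fermentation genes, Control peaks overlapped 4 and Exp C peaks 0. Over all protein-coding genes the shares were 1.48% in Control and 5.18% in Exp C. The 4 genes were TDH3 (glyceraldehyde phosphate dehydrogenase), ADH1 (alcohol dehydrogenase), TPI1 (triose phosphate isomerase) and GPM2 (a homologue of phosphoglycerate mutase). In each of the 4 the peak held the 5′ end and lay mostly upstream of the gene. It covered 130 bp of TDH3, 164 bp of ADH1, 186 bp of TPI1 and 410 bp of GPM2. The neighbours PDX1, beside TDH3, and DET1, beside TPI1, were covered whole and held the midpoints of those peaks. The same peak as at GPM2, on chromosome IV at 410986 to 414362 (score 163.52), covered GPD1, a glycerol phosphate dehydrogenase gene, whole and had its midpoint there. The 5′ ends of PMA1, the plasma membrane proton pump gene, and PMC1, the vacuolar calcium pump gene, were in 1 Control peak on chromosome VII at 482196 to 486274, a pair chosen after its values were seen.

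Gene starts and gene ends were both present in the class as a whole. Over all Control only peaks, 21 genes had just the 5′ end inside a peak and 12 just the 3′ end, so that 63.6% were 5′ ends (interval 45.1 to 79.6%). For Exp C only peaks the numbers were 58 and 48 (54.7% 5′ ends). In the whole lists they were 69 and 57 for Exp C (54.8%) and 27 and 24 for Control (52.9%). Histone genes HTA2 and HTB2, a divergent pair, were both touched by 1 Control peak of 4509 bp on chromosome II, out of 11 histone genes, with HTB2 whole and 190 bp of HTA2. Exp C peaks overlapped 0 of the 11. The shares of all protein-coding genes were 1.48% in Control and 5.18% in Exp C.

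**Figure D4:**
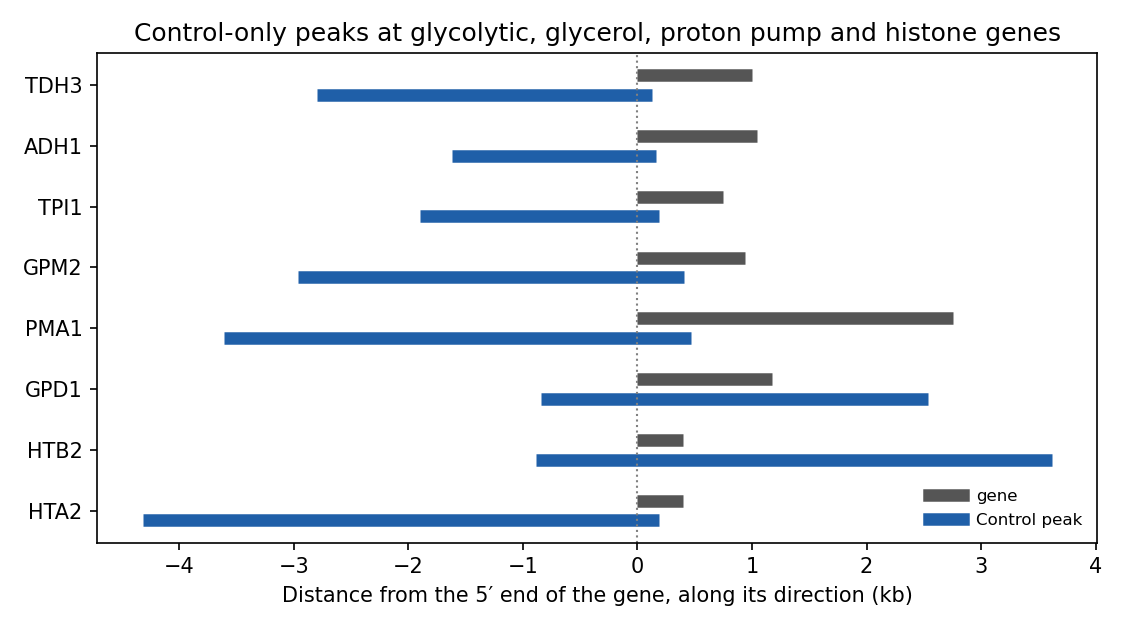
Control only peaks (blue) and genes (grey) at TDH3, ADH1, TPI1 and GPM2 of the glycolysis and fermentation list, at PMA1 and GPD1, and at the histone genes HTB2 and HTA2. Positions are distances in kb from the 5′ end of each gene along its own direction. In the first 5 rows and in that of HTA2 the peak crosses the 5′ end and stops inside the gene, while GPD1 and HTB2 lie whole inside their peaks. GPM2 and GPD1 share 1 peak, as do HTA2 and HTB2.

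The highest Control only scores were at the rDNA border and near chromosome ends. The top score of the list was on chromosome XII at 489753 to 490882, at YLR162W and RRT15 beside the ribosomal RNA repeats. The next were at 6627 to 7698 on chromosome X and at 6631 to 7712 on chromosome IX. Each lay over no gene and at nearly the same distance from the chromosome's left end. Neither was overlapped by the WT list of the Control experiment called over G1 cells. Chromosome ends are known to share duplicated sequence, and copy number was not tested here, so these places are uncertain. Lower in the order came RFX1, the repressor gene of the ribonucleotide reductase genes, whole in the peak on chromosome XII at 507206 to 512378 (score 186.88). MAF1, the gene of the repressor of RNA polymerase III, followed on chromosome IV at 457321 to 461296 (score 183.70). The others of the first 10 overlapped GBP2 and ILV6, DFP1 and SUP56, DSK2 and FCP1, and MRH4 and PUS2.

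The remaining gene lists had small counts in both experiments. Of 24 sugar transport genes, Exp C peaks overlapped 4 (HXT2, HXT5, HXT6 and HXT7) and Control peaks 2 (HXT2 and HXT5). Of 46 other permease genes they overlapped 4 (ADY2, PUT4, TPO2 and TPO3) and 1 (TPO3). Of 47 cell wall genes the counts were 4 (CWP2, EXG1, TIR2 and TIR4) and 0, and of 137 ribosomal protein genes 5 (RPL2A, RPL29, RPS25B, RPL36A and RPL36B) and 1 (RPL36A). Of 27 checkpoint and nucleotide supply genes, Exp C peaks overlapped 2 (CSM3 and DIF1, a regulator of ribonucleotide reductase) and Control peaks 1 (RFX1). Of 34 pheromone and mating genes the counts were 2 (KSS1 and TEC1) and 1 (TEC1). Of 31 iron uptake genes they were 0 and 0. Of 19 SUMO and ubiquitin genes they were 4 (ULP1, UBC4, UBC5 and BRE1) and 2 (ULP1 and UBC4), in a list chosen with these regions already known. The share of all protein-coding genes, 5.18% for Exp C and 1.48% for Control, is the background for each count.

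The mec1 HU lists, made from libraries that the classes did not use, overlapped all 3 classes. At least 1 of the 3 lists overlapped 11 of the 15 shared regions (73.3%, windows 28.2%), 55 of the 88 Exp C only regions (62.5%, windows 22.7%) and 18 of the 28 Control only regions (64.3%, windows 19.3%). The intervals, 44.9 to 92.2%, 51.5 to 72.6% and 44.1 to 81.4%, overlap one another.

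The mec1 lists did so unequally. The mec1 Control list, from the same experiment as the WT Control list, overlapped 18 of the 28 Control only regions (64.3%, windows 13.7%), while mec1 Exp A overlapped 2 (7.14%, windows 7.20%) and mec1 Exp B overlapped 1 (3.57%, windows 7.84%). Without the mec1 Control list, the share of Control only regions overlapped by a mec1 HU list was 10.7% (windows 11.1%), that of shared regions 20% (windows 17.1%) and that of Exp C only regions 34.1% (windows 13.4%). A common experiment and a common set of break sites cannot be told apart for the Control only regions.

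Exp C only regions differed by width in which mec1 list they met. Of the 43 that reached 4 kb, the mec1 Control list overlapped 30 (69.8%, interval 53.9 to 82.8%, windows 20.3%), and mec1 Exp A overlapped 3 (6.98%, interval 1.46 to 19.1%, windows 11.1%). Of the 45 narrower regions, mec1 Control overlapped 13 (28.9%, interval 16.4 to 44.3%, windows 12.6%), and mec1 Exp A overlapped 19 (42.2%, interval 27.7 to 57.9%, windows 6.56%). For both mec1 lists the intervals of wide and narrow regions do not overlap, and the order is opposite. These intervals treat regions as independent, and no test was run. Some narrow regions met by mec1 Exp A are close neighbours, at ICL1, at TYE7 and REV1, at YDC1 and ELP3, and at the left end of chromosome III. A single site may thus be counted more than once. For mec1 Exp B the shares were 18.6% and 22.2%. Wide regions with a tRNA gene met mec1 Control in 15 of 25 cases and those without one in 15 of 18.

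**Figure D5:**
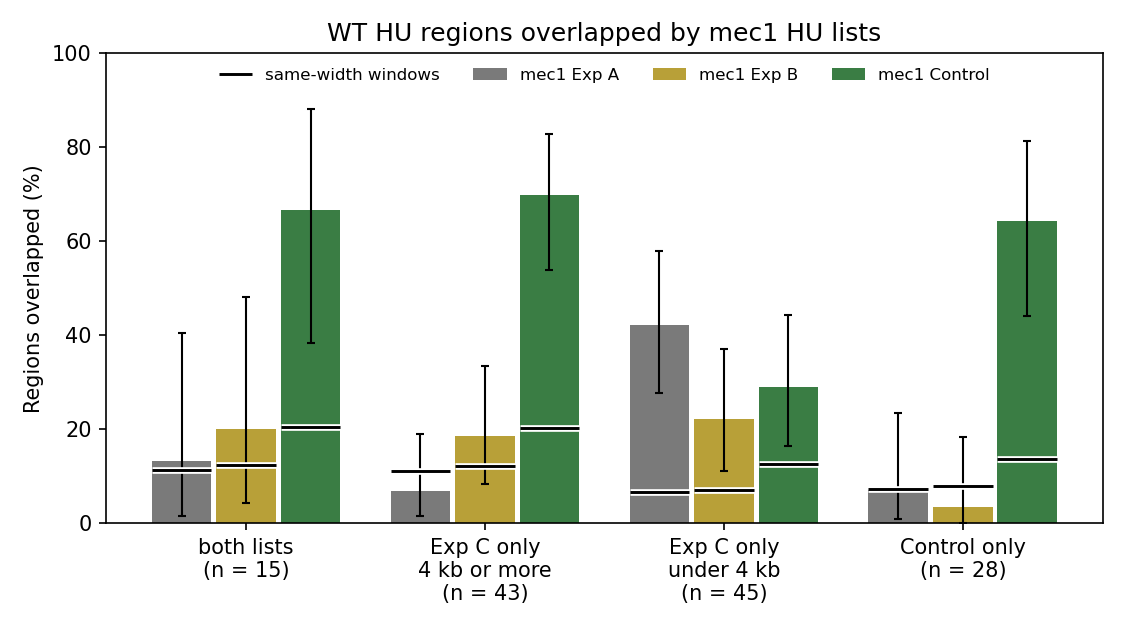
Percent of WT HU regions in each class overlapped by the mec1 HU lists of Exp A (grey), Exp B (yellow) and Control (green). Error bars are exact 95% binomial intervals (counting error only), and black lines are the shares of same-width windows. The green bars reach 66.7%, 69.8% and 64.3% in 3 of the groups, and the grey bar is the highest of the narrow Exp C only regions at 42.2%.

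Few regions recurred in every mec1 HU list. All 3 lists overlapped 2 of the 15 shared regions, 7 of the 88 Exp C only regions and 0 of the 28 Control only regions. Among the named regions these 7 included ASF1, KSS1 and the left end of chromosome III. None of these 3 lists overlapped 4 shared, 33 Exp C only and 10 Control only regions. The second-ranked Exp C only peak, at PRP39, was among them. The PRP39 peak was overlapped by both mec1 lists of the Control experiment in which HU was called over another library. Absence from the 3 lists is thus not always absence from every mec1 list. Some regions were in no mec1 list at all, such as that at ISC1 and GPA2 on chromosome V (193896 to 195571).

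The lists of the Control experiment that were called over a comparison library bear on the Control peaks, with which they share the HU library. On the reading of the sample descriptions, 1 list was called over the library made without biotin (mock) and 1 over G1 cells, although the sample titles name the mock and G1 samples. Of the 43 Control peaks, 33 had the same coordinates in the list over mock, 39 in the list over G1 and 31 in both. Peaks missing from both numbered 2, at the Ty3 retrotransposon genes YGR109W-B on chromosome VII (711076 to 712607) and YIL082W-A on chromosome IX (208445 to 210683). These genes have near-identical copies, so their positions are uncertain. The high-scoring peaks over no gene near the left ends of chromosomes IX and X were in the list over mock but not in the list over G1. The mec1 Control list overlapped both of them, and the mec1 lists over mock and over G1 overlapped neither. Of the 15 shared regions, 10 were overlapped by the list over mock and 15 by the list over G1. Of the 88 Exp C only regions, 2 and 3 were overlapped, 2.27% and 3.41%, where windows gave 3.12% and 4.08%. The class rule partly set these counts. Of the 60 peaks over mock 33, and of the 90 over G1 39, have the coordinates of Control peaks. Every shared region meets a Control peak by the rule and no Exp C only region does, while the windows were free to meet them.

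The mec1 lists of the Control experiment called in the same way overlapped nearly all wide Exp C only regions. The mec1 list over mock overlapped 41 of the 43 (95.3%, windows 32.5%) and the list over G1 overlapped 42 (97.7%, windows 35.5%). Of the 45 narrower regions they overlapped 19 (42.2%, windows 23.9%) and 25 (55.6%, windows 26%). High shares were not limited to wide Exp C only regions. Of the shared regions they overlapped 86.7% (windows 32.8%) and 93.3% (windows 35.8%), and of the Control only regions 71.4% (windows 25.2%) and 78.6% (windows 27.4%). The list from mec1 G1 DNA digested with BamHI, a restriction enzyme, overlapped 7 of the 15 shared regions (46.7%, windows 63.2%), 50 of the 88 Exp C only regions (56.8%, windows 48.9%) and 9 of the 28 Control only regions (32.1%, windows 39.7%).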

How the data were processed

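Each deposited peak has coordinates and a score from the authors' peak caller. Per the labels, the authors called both WT HU lists with MACS from the HU library alone, per sample and without pooling. Reads were aligned to sacCer3, per the submitters' processing notes. The sources used here do not state the MACS settings, read filters or the scale of the score. The lowest score in each WT list is just over 50. Positions were made 1-based by adding 1 to each start.

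Peaks were merged where they shared at least 1 bp. Genes came from the RefSeq table of the R64 assembly (6431 nuclear genes), with strand read from the locus tag. The table does not annotate most tRNA genes with an amino acid, and no genome sequence was used here. Window shares count every position of a window of the same width on the 16 chromosomes. Wide peaks are those of at least 4 kb. Scripts ran in Python 3.11.15 with numpy 2.4.6, pandas 2.3.3 and scipy 1.17.1, and the merging and window counts were tested on simulated data.

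The regions, lists of genes and settings were chosen with earlier results of these data known. The text names all shared regions, the 10 highest-scoring, 3 widest and 3 narrowest regions of each other class, the tRNA genes of shared and Control only regions and of Exp C only regions that rank among those 10 or hold several tRNA genes, and the overlapped members of 12 gene lists. Other settings varied the overlap, peak width, score minimum, list length and chromosome ends.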

Additional observations from a re-analysis of the deposited data

How the results depend on the processing

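Of 54 values under other settings, 37 stayed within 1.5 times of a count or within the counting interval or spread of a share or width, and 17 moved. The number of shared regions, 15, was 3 with peaks cut to 500 bp around their midpoints and 5 with a score of at least 100, and it was 14 to 16 under the overlap, joining and chromosome-end settings. With a score of at least 100 the Control only regions numbered 13 in place of 28, and the median width of Exp C only regions was 5270 bp in place of 3894 bp. With as many Exp C peaks as Control peaks, taken by score, the classes held 11 shared, 32 Exp C only and 32 Control only regions. The share of peaks over a tRNA gene in Exp C, 32.0%, was 0.971%, 3.88% and 7.77% with 500, 1000 and 2000 bp around the midpoints and 53.6% for peaks of 4 kb or more. In Control it was 2.33% with 500 bp and with 1000 bp. The share overlapped by a mec1 HU list, with at least 50% of the shorter required, was 40% for shared and 47.7% for Exp C only regions. Leaving out each mec1 HU list gave 20 to 73.3% for shared, 34.1 to 60.2% for Exp C only and 10.7 to 64.3% for Control only regions, in each case lowest without mec1 Control. The share of merged regions over a tRNA gene, 28.2%, was 11.6% without Exp C and 32.0% without Control. Narrower windows hold less sequence by construction; for the other changes the cause was not tested. No paired analysis was possible because each class rests on 1 list for each experiment. The unknown depth limits every count, and a site missing from the shorter list was not detected there, which does not show that it was unbroken.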
